A study of Mus musculus with 18 samples.

Results

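The 8 folate enzymes Aldh1l1, Aldh1l2, Shmt1, Shmt2, Mthfd1, Mthfd2, Mthfd1l and Tyms were followed across 18 mouse liver RNA-seq libraries, as the rows of the deposited gene table that carry those symbols, 8 of 58126 genes. The libraries came from C57BL/6 mice with a liver-specific Ftcd knockout (LKO) and from wildtype (WT) littermates, all at month 12. For 3 groups the mice had been given the liver carcinogen diethylnitrosamine (DEN, 20 mg/kg, into the peritoneum) at postnatal day 14 and were sampled 12 months after that: nontumour liver of DEN WT mice (6 libraries), nontumour liver of DEN LKO mice (3) and tumours of DEN LKO mice (3). The other groups were untreated liver of LKO (3) and WT (3) mice aged 12 months. The labels name no Cre driver and do not say whether replicates came from separate animals, so a p-value here measures only the spread between these samples. A tumour of a WT mouse was not analysed here, so tumours were compared only with nontumour liver.

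Folate carries single carbon units between serine, glycine, formate, purines, thymidylate and methionine. Cytosolic and mitochondrial enzymes run in parallel: Shmt1 and Shmt2 move a carbon from serine to folate, Mthfd1 and the pair Mthfd2 and Mthfd1l pass it on towards formate, Aldh1l1 and Aldh1l2 burn formyl-folate to carbon dioxide, and Tyms spends a carbon unit on thymidylate for DNA. Ftcd, the deleted gene, brings a carbon unit from histidine breakdown into the cytosolic folate pool. Aldh1l1 is known as an abundant liver protein, and Mthfd2 as an enzyme of embryonic and transformed cells.

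Before any comparison, the deleted gene was read in every library. Ftcd lay between 0.1 and 3.16 TPM (transcript abundance corrected for gene length and expressed relative to everything in the library) in the 9 LKO libraries and between 61.2 and 106 TPM in 6 of the 9 WT libraries. The other 3 libraries labelled WT, DEN WT libraries 1 and 2 and untreated WT library 3, held 1.77 to 2.50 TPM, inside the LKO range. They are kept as labelled, and the values without them are given beside the results they change. Xist and Y-linked transcripts marked all 9 WT libraries as XX and 7 of the 9 LKO libraries as XY, so genotype and sex moved together, and among untreated libraries they cannot be told apart. Transcripts encoded by the mitochondrial genome made up 4.24% to 38.8% of TPM, with group means of 12.5% ± 9.69 (SD, n = 3) for untreated WT, 23.2% ± 6.86 (n = 3) for untreated LKO, 12.0% ± 13.3 (n = 6) for DEN WT, 24.6% ± 10.6 (n = 3) for nontumour DEN LKO and 19.4% ± 10.8 (n = 3) for tumour libraries. Hepatocyte markers were present in all libraries (12 of 12, with albumin at 6758 TPM or more). The table holds no counts, so depth is unknown. In bulk tissue, fewer cells of a type and less RNA per cell cannot be told apart.

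The genes lie on mm10, in the GENCODE annotation, at chr6:90486427-90600203 (Aldh1l1, plus strand), chr11:60788104-60811718 (Shmt1, minus), chr12:76255298-76319803 (Mthfd1, plus), chr5:30058202-30073617 (Tyms, minus), chr10:127517123-127522444 (Shmt2, minus), chr6:83305691-83325908 (Mthfd2, minus), chr10:3973118-4167081 (Mthfd1l, plus) and chr10:83487450-83534140 (Aldh1l2, minus). RefSeq gave a promoter for 7 of the 8 genes, all but Aldh1l2. Those of Aldh1l1 and Shmt1, the enzymes with the lowest LKO minus WT differences, and of Mthfd2 and Mthfd1l, the enzymes with an unadjusted p under 0.05 in tumour minus nontumour liver, are printed as the 250 bases before the RefSeq transcript start (build GRCm38.p6, the same assembly as mm10), 5′ to 3′ on the gene's strand. Capitals mark matches on either strand to CCAAT (the box bound by NF-Y) or GGGCGG (the core of the GC box bound by Sp1). The windows are chr6:90550543-90550792 on the plus strand, chr11:60811266-60811515 on the minus strand, chr6:83317605-83317854 on the minus strand and chr10:3972825-3973074 on the plus strand. All but that of Mthfd1l lie inside the gene's GENCODE span, which also counts transcripts starting farther upstream.
Aldh1l1: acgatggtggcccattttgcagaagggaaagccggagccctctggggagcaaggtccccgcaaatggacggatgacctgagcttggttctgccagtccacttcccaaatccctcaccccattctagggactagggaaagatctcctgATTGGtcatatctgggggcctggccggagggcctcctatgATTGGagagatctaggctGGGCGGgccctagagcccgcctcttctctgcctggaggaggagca
Shmt1: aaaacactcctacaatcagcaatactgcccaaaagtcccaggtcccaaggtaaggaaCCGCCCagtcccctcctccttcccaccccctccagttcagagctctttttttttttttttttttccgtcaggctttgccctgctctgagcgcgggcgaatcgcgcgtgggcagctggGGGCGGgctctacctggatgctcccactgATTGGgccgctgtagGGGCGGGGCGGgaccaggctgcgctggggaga
Mthfd2: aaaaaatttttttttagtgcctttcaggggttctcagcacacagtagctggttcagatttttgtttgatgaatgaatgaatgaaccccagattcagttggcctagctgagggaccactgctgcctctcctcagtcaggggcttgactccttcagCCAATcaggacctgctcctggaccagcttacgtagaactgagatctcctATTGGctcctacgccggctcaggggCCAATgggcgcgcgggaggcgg
Mthfd1l: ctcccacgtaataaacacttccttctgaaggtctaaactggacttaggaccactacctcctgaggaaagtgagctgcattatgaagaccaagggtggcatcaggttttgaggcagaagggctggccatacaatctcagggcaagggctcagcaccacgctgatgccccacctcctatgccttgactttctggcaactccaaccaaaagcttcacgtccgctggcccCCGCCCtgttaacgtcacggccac
Mthfd2 carried 3 matches to the NF-Y box and none to the GC box, Aldh1l1 carried 2 and 1, and Shmt1 carried 1 and 4, and 2 of those 4 overlap each other. Mthfd1l carried none to the NF-Y box and 1 to the GC box. The NF-Y box was found in 4 of the 7 promoters and in 33.8% of all 32851 RefSeq promoter windows of the same length, and the GC box in 5 of 7 and in 32.7%. The ATF4 and CHOP composite core TGATGNAA was found in 0 of 7 and in 3.45% of all windows. The search for E2F factors took a promoter that held the letters TTCCCGC on either strand, and likewise one that held the letters TTGGCGC, one with the letters TTGCCGC, and finally any with the letters TTCGCGC. Such a string was found in 1 of 7, that of Mthfd1, and in 7.89% of all windows. No match of one motif overlapped a match of another in these 7 promoters. A match describes the letters only.

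Levels can be compared between genes because TPM is scaled by gene length. In untreated WT liver Aldh1l1 had the highest level of the 8 genes (336 TPM ± 185, SD, n = 3), followed by Shmt2 (101 ± 40.3), Shmt1 (85.0 ± 59.4) and Mthfd1 (60.7 ± 45.8), which differed from one another by less than their spread. Tyms came next (5.27 ± 3.93), then Mthfd2 (0.467 ± 0.343) and Mthfd1l (0.237 ± 0.170), again closer to each other than their spread. Aldh1l2 was at most 0.28 TPM in any of the 18 libraries and was listed at 0 in some libraries of every group, so only 7 of the 8 genes passed the filter of at least 1 TPM in 3 or more libraries and were tested. In tumours the order was Aldh1l1 (76.9 TPM ± 37.8, SD, n = 3), Shmt2 (64.8 ± 36.1), Shmt1 (27.6 ± 22.5), Mthfd1 (27.2 ± 19.0), Tyms (14.7 ± 18.7), Mthfd1l (4.57 ± 4.58) and Mthfd2 (3.84 ± 2.10), and neighbours differed by less than the larger of their SDs, except Shmt2 and Shmt1. Untreated LKO and DEN WT liver had the order of untreated WT liver. In DEN LKO nontumour liver Mthfd1 (19.0 ± 5.30) and Shmt1 (18.1 ± 4.72) stood in the opposite order, closer than their spread. Counting was not stated to use strand, so reads cannot be told apart where genes on opposite strands overlap: Smcr8 (up to 5.42 TPM) overlaps the end of Shmt1 and Ndufa4l2 (up to 11.4 TPM) the end of Shmt2. The Tyms pseudogene Tyms-ps was listed at 0 in all 18 libraries.

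**Figure D1:**
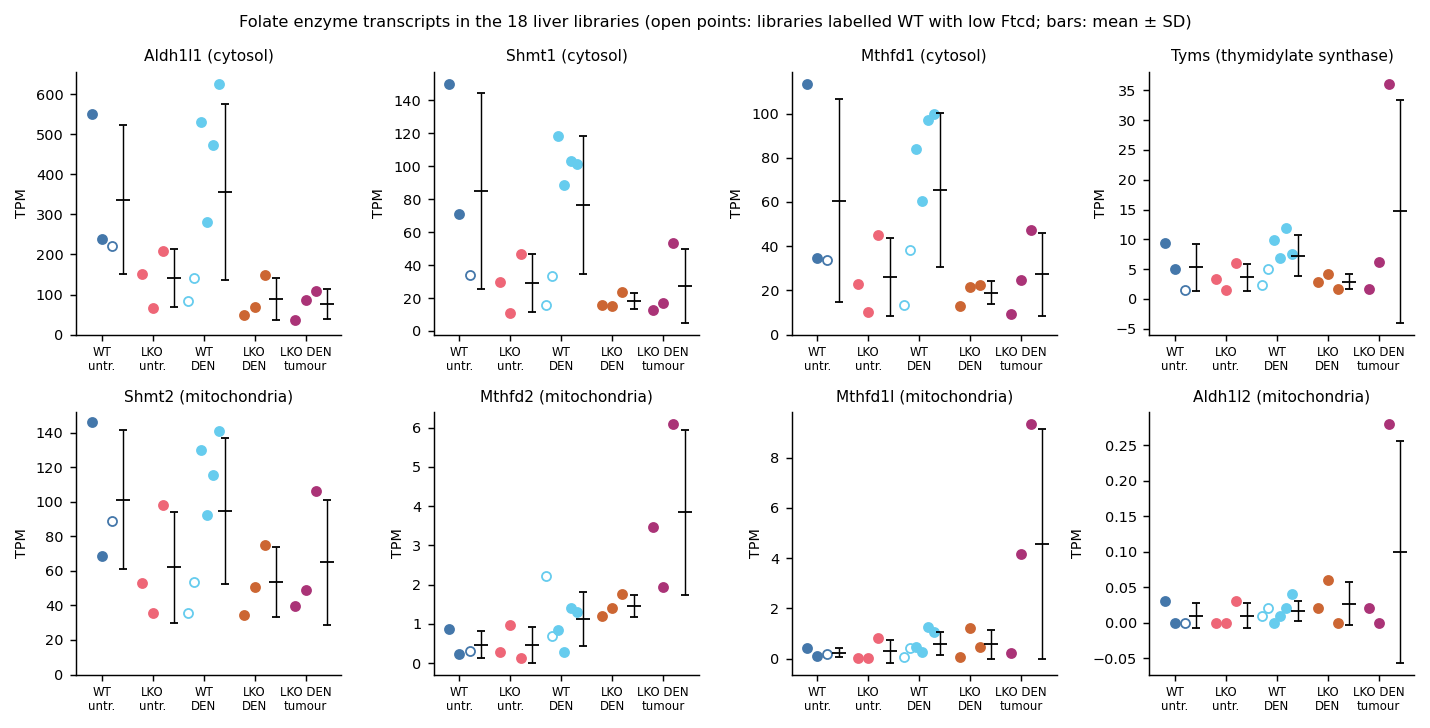
Level of each enzyme in TPM (vertical axes, linear, scaled per gene) in the 18 libraries by group, 1 point per library, with the group mean and SD as bars and the 3 libraries labelled WT with low Ftcd as open points. Aldh1l1, Shmt1 and Mthfd1 reach 626, 150 and 114 TPM in WT libraries, while Mthfd2 and Mthfd1l reach their highest levels, 6.10 and 9.35 TPM, in tumour library 3.

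Aldh1l1, the cytosolic enzyme that oxidises formyl-folate, was 550, 239 and 220 TPM in untreated WT libraries 1 to 3. In untreated LKO libraries 1 to 3 it was 150, 65.4 and 208 TPM. In DEN WT it ran from 83.3 over a median of 377 to 626 TPM, against 47.9, 69.8 and 149 TPM in nontumour and 35.3, 86.1 and 109 TPM in tumour libraries 1 to 3 of DEN LKO mice. The untreated LKO libraries all lay below the untreated WT libraries, whereas the DEN groups overlapped through DEN WT libraries 1 and 2 (83.3 and 141 TPM), both among those with low Ftcd. On the log2(TPM + 1) scale, on which low genes are understated, the difference was -1.27 ± 0.74 (SE) for untreated LKO minus untreated WT (limma adjusted p = 0.831), -1.83 ± 0.64 for DEN LKO nontumour minus DEN WT (0.333) and -2.02 ± 0.64 for tumour minus DEN WT (0.187). None of these passed at an adjusted p under 0.05. Tumour and nontumour DEN LKO liver differed by -0.19 ± 0.74 (adjusted p = 0.972).

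Shmt1, which loads folate from serine in the cytosol, was 150, 71.1 and 33.8 TPM in libraries 1 to 3 of untreated WT liver, and 29.99, 11.02 and 46.6 TPM in those of untreated LKO liver. DEN WT ran from 15.64 over a median of 95.1 to 118 TPM, DEN LKO nontumour held 15.60, 15.1 and 23.5 TPM, and tumours held 12.6, 16.7 and 53.4 TPM. The 4 DEN WT libraries with Ftcd at WT level were at 88.8 TPM or more, above every DEN LKO library, and the other 2 lay within the range of these. In untreated liver the groups overlapped through low-Ftcd WT library 3. The differences were -1.47 ± 0.77 (SE) for untreated LKO minus WT (limma adjusted p = 0.831), -1.76 ± 0.67 for DEN LKO nontumour minus DEN WT (0.342) and -1.43 ± 0.67 for tumour minus DEN WT (0.46), none passing. Without the 3 low-Ftcd WT libraries the untreated difference was -2.0008 ± 0.63 (adjusted p = 0.365), where 0.425% of all genes were called. Only libraries 1 and 2 of untreated WT liver remained in that fit, whose spread is shared over all groups. Their mitochondrial shares, 4.24% and 10.0%, lay below the 17.9% to 30.9% of untreated LKO liver. Genotype and share therefore cannot be told apart in that fit.

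Mthfd1, the multifunctional cytosolic enzyme between formate and the serine-derived unit, was 114, 34.9 and 33.6 TPM in libraries 1 to 3 of untreated WT liver, and 22.8, 10.4 and 44.9 TPM in those of untreated LKO liver. DEN WT ran from 13.2 over a median of 72.1 to 99.7 TPM, DEN LKO nontumour held 12.9, 21.7 and 22.5 TPM, and tumours held 9.46, 24.9 and 47.2 TPM. Untreated WT library 1 alone stood above all other untreated libraries, and the groups overlapped in every comparison made. The differences were -1.17 ± 0.75 (SE) in untreated liver (limma adjusted p = 0.831), -1.51 ± 0.65 for DEN LKO nontumour minus DEN WT (0.362) and -1.23 ± 0.65 for tumour minus DEN WT (0.537), none passing.

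Tyms, which makes thymidylate for DNA synthesis, was 9.35, 4.95 and 1.52 TPM in libraries 1 to 3 of untreated WT liver, and 3.36, 1.45 and 6.05 TPM in those of untreated LKO liver. DEN WT ran from 2.40 over a median of 7.22 to 12.0 TPM, DEN LKO nontumour held 2.83, 4.12 and 1.71 TPM, and tumours held 1.74, 6.22 and 36.1 TPM. Tumour library 3 was the highest of all 18 libraries, while tumour library 1 lay inside the nontumour range. Tumour minus nontumour DEN LKO liver gave 1.26 ± 0.75 (SE; limma adjusted p = 0.943) and DEN LKO nontumour minus DEN WT -1.02 ± 0.65 (0.459). The first was 0.24 without tumour library 3 and 2.12 without tumour library 1, neither passing. Tumour minus DEN WT gave 0.25 ± 0.65 (0.946), which was -0.13 without the 3 low-Ftcd WT libraries, -0.77 without tumour library 3 and 1.11 without tumour library 1.

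Shmt2, the mitochondrial serine enzyme, was the only mitochondrial member at a level like that of the cytosolic ones. It was 146, 68.4 and 88.7 TPM in libraries 1 to 3 of untreated WT liver, and 53.0, 35.5 and 97.9 TPM in those of untreated LKO liver. DEN WT ran from 35.6 over a median of 104 to 141 TPM, DEN LKO nontumour held 34.4, 50.9 and 74.7 TPM, and tumours held 39.4, 49.0 and 106 TPM. All groups overlapped. The differences ranged from -0.74 ± 0.58 (SE) for untreated LKO minus WT (limma adjusted p = 0.831) and -0.73 ± 0.50 for DEN LKO nontumour minus DEN WT (0.476) to 0.21 ± 0.58 for tumour minus nontumour DEN LKO liver (0.955), which was -0.08 with median-ratio scaling and -0.07 with quantile normalization.

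Mthfd2, the mitochondrial methylene-folate dehydrogenase, was 0.86, 0.23 and 0.31 TPM in libraries 1 to 3 of untreated WT liver, and 0.27, 0.98 and 0.14 TPM in those of untreated LKO liver. DEN WT ran from 0.28 over a median of 1.07 to 2.23 TPM, DEN LKO nontumour held 1.20, 1.41 and 1.75 TPM, and tumours held 3.47, 1.95 and 6.10 TPM. All 3 tumour libraries lay above all 3 DEN LKO nontumour libraries, and those above all 3 untreated LKO libraries; DEN WT library 1 (2.23 TPM) overlapped the tumours. Tumour minus nontumour DEN LKO liver gave 0.89 ± 0.38 (SE; limma adjusted p = 0.943), tumour minus DEN WT 1.16 ± 0.33 (0.136) and DEN LKO nontumour minus untreated LKO 0.78 ± 0.38 (0.839), none passing. The first was 0.57 without tumour library 3. Genotype differences were estimated at -0.02 ± 0.38 in untreated liver (95% interval -0.82 to 0.78) and 0.26 ± 0.33 in DEN nontumour liver (-0.43 to 0.95). The first turned to 0.22 with median-ratio scaling. At these low levels the scale understates differences, so larger ones in either direction were not excluded. Its isozyme Mthfd2l, known from adult tissues, was higher than Mthfd2 on average in every group, at 5.06 TPM ± 3.29 (SD, n = 3) in tumours and 2.89 ± 1.22 (n = 3) in untreated WT.

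Mthfd1l, the mitochondrial formate-releasing enzyme, was 0.43, 0.11 and 0.17 TPM in libraries 1 to 3 of untreated WT liver, and 0.04, 0.03 and 0.83 TPM in those of untreated LKO liver. DEN WT ran from 0.07 over a median of 0.44 to 1.25 TPM, DEN LKO nontumour held 0.05, 1.20 and 0.46 TPM, and tumours held 0.21, 4.15 and 9.35 TPM. Tumour libraries 2 and 3 stood above the other 15 nontumour and untreated libraries, and tumour library 1 was inside their range. Tumour minus nontumour DEN LKO liver gave 1.42 ± 0.55 (SE; limma adjusted p = 0.943) and tumour minus DEN WT 1.38 ± 0.48 (0.239). Without tumour library 1 these became 2.28 (0.0437) and 2.25 (0.00283) and passed, where 0.151% and 3.5% of all genes were called, so 1 library decided the call. Without tumour library 3 they became 0.74 (adjusted p = 1) and 0.70 (0.557). Aldh1l2, the mitochondrial partner of Aldh1l1, reached 0.28 TPM in tumour library 3 and at most 0.06 TPM elsewhere.

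In untreated liver, the comparison of genotypes gave values below 0 for 6 of the 7 tested enzymes, and no enzyme passed. Of all 13872 genes, 0.433% were called, and the enzymes' median difference was -0.74 against -0.33 over all genes, of which 76.1% were below 0. Aldh1l1 alone had groups that did not overlap, which 11.4% of all genes had, 8.97% in the lower direction. At an unadjusted p under 0.05, 0 of 7 enzymes and 4.15% of all genes were found. The 95% intervals of the differences all held 0, from -3.09 to 0.14 for Shmt1 and from -2.82 to 0.29 for Aldh1l1. With the mitochondrial share as a covariate Shmt1, Aldh1l1, Mthfd1 and Shmt2 were at -0.41, -0.30, -0.09 and -0.076, and with a term for sex at -2.20, -2.52, -2.41 and -1.58, none passing. The sex term came from the DEN LKO groups alone, the only groups with both XX and XY libraries. Their XX libraries, nontumour library 1 and tumour library 1, had the highest mitochondrial shares of their groups (36.9% and 31.4%). It therefore cannot separate sex from genotype in untreated liver. The 12 hepatocyte markers summed to 42460 to 67915 TPM in untreated WT and 19754 to 40513 TPM in untreated LKO, which also differ in sex. The 8 Kupffer cell and macrophage markers summed to 55.6 to 160 and 31.8 to 60.8 TPM. Their part in the result was not tested.

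In DEN-treated nontumour liver 6 of the 7 enzymes were also below 0 in LKO minus WT, as were 62% of all genes. Mthfd2 was the exception there and Mthfd1l in untreated liver. The enzymes' median difference was -1.02 against -0.19 over all genes, and 0 of 7 passed, against 0.0577% of all genes. The groups overlapped for all 7, while they did not for 4.06% of all genes. At an unadjusted p under 0.05, 3 of 7 enzymes (Aldh1l1, Shmt1 and Mthfd1, all lower in LKO) and 13.1% of all genes were found. Without the 3 low-Ftcd WT libraries, Aldh1l1 (-2.52, limma adjusted p = 0.0255), Shmt1 (-2.47, 0.0231) and Mthfd1 (-2.12, 0.04) fell in DEN LKO, where 8.35% of all genes were called and 5.65% in the lower direction. The DEN WT libraries left there had mitochondrial shares of 4.39% to 9.82%, all below the 17.8% to 36.9% of DEN LKO nontumour liver. Genotype and share therefore cannot be told apart in that fit. The 6 cholangiocyte markers summed to 15.6 to 179 TPM (median 120.3) in DEN LKO nontumour and 5.96 to 64.6 TPM (median 39.9) in DEN WT liver. Among them Spp1 reached 166 TPM over all libraries and every other marker at most 6.24 TPM, so the high sums were mostly Spp1. The 12 hepatocyte markers summed to 32009 to 69986 (median 45982) and 27523 to 104803 TPM (median 67954) in the same groups. The part of these markers in the result was not tested. With the log2 mitochondrial share as a covariate, and all libraries kept, the differences were -0.64 for Aldh1l1, -0.47 for Shmt1 and -0.19 for Mthfd1, none passing. The only XX library of DEN LKO nontumour liver, library 1, had 47.9 TPM of Aldh1l1, 15.60 of Shmt1 and 12.89 of Mthfd1. Each was below all 6 DEN WT libraries, which are XX, though only narrowly below DEN WT library 1 for Shmt1 (15.64) and Mthfd1 (13.21). The mitochondrial share of DEN LKO nontumour library 1 was 36.9%, near the 38.8% of DEN WT library 1 and far above the other 5 DEN WT libraries (4.39% to 9.82%). Whether the genotype effect differed with DEN was tested as an interaction: 0 of 7 enzymes and 0% of all genes passed (332 genes at an unadjusted p under 0.05), with differences of effects from -0.67 ± 1.00 (SE) for Tyms to 0.28 ± 0.50 for Mthfd2.

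**Figure D2:**
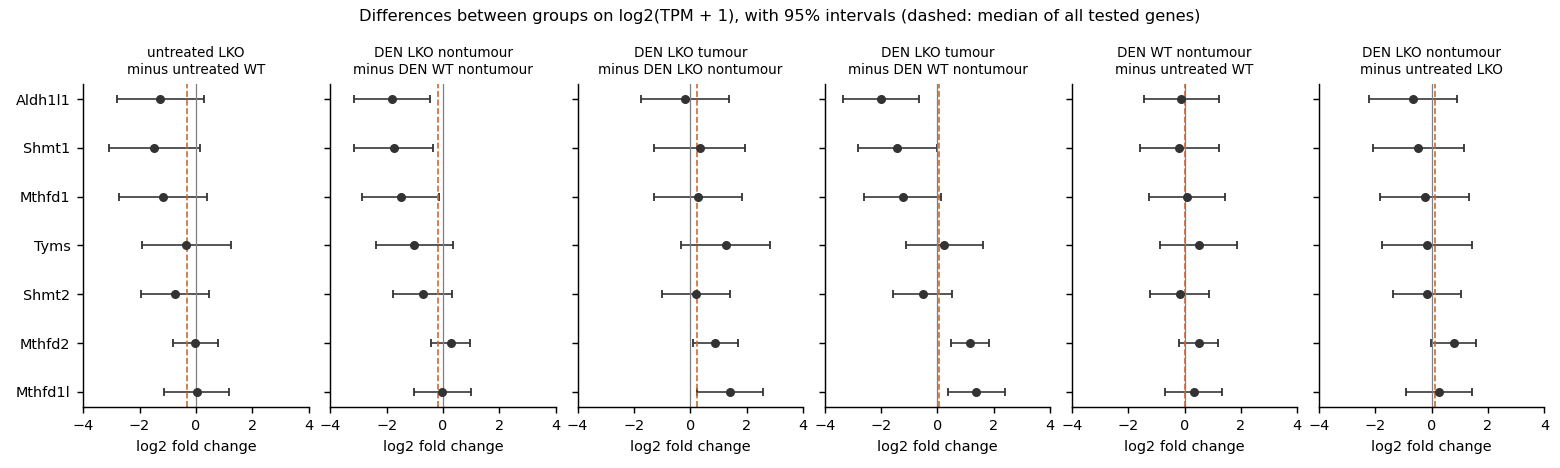
Difference in log2(TPM + 1) of the 7 tested enzymes in the 6 comparisons (horizontal axes), as points with 95% intervals from limma and a dashed line at the median of all tested genes. In the 2 comparisons of DEN LKO with DEN WT, Aldh1l1 lies at -1.83 and -2.02, while Mthfd2 and Mthfd1l lie at 0.89 and 1.42 in tumour minus nontumour liver.

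Tumours against nontumour liver of DEN LKO mice gave differences above 0 for 6 of the 7 tested enzymes, all but Aldh1l1, and none passed. Of all genes, 30.7% were below 0. The median difference of the enzymes was 0.33 against 0.23 over all genes, and Shmt1 and Mthfd1 changed sign with quantile normalization (-0.02 and -0.07). In this comparison limma called 0% of all genes, with 380 genes (2.74%) at an unadjusted p under 0.05, Mthfd2 and Mthfd1l among them. Mthfd2 alone had groups that did not overlap, against 3.83% of all genes and 1.81% in the higher direction. The 20 cell division genes summed to 29.7, 55.5 and 314 TPM in tumour libraries 1 to 3, so the library with the highest Tyms, Mthfd1l and Mthfd2 also had the highest level of these genes; in DEN LKO nontumour liver they summed to 19.4 to 48.2 TPM. Markers of other cells overlapped between the groups: Kupffer cell and macrophage markers summed to 46.3 to 190 TPM in tumours and 101 to 275 TPM in nontumour liver, and lymphocyte markers to 5.63 to 33.4 and 5.5 to 21.2 TPM. Their part in the result was not tested.

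Tumours against DEN WT liver, a comparison that shares the tumours with the previous one and the DEN WT libraries with the nontumour one, gave 4 differences below 0 and 3 above, where 47.1% of all genes were below 0. The cytosolic Aldh1l1, Shmt1 and Mthfd1 were at -2.02, -1.43 and -1.23, the mitochondrial Shmt2 at -0.52, and the mitochondrial Mthfd2 and Mthfd1l at 1.16 and 1.38. None of the 7 passed, against 0.497% of all genes, and none had groups that did not overlap, against 3.19%, while 4 of 7 (Aldh1l1, Shmt1, Mthfd2 and Mthfd1l) and 10.5% of all genes had an unadjusted p under 0.05. Aldh1l1 passed with median-ratio scaling (-2.0033, limma adjusted p = 0.0123, 2.26% of all genes called) and with quantile normalization (-1.88, 0.0437, 1.69%). Without the 3 low-Ftcd WT libraries, Aldh1l1 (-2.71, 0.0187) and Shmt1 (-2.13, 0.0418) passed, against 3.03% of all genes and 2.25% in the lower direction. Mthfd1 then missed the threshold (-1.85, 0.0972), as did Mthfd2 (1.26, 0.0677). The DEN WT libraries left there had mitochondrial shares of 4.39% to 9.82%, all below the 10.5% to 31.4% of the tumours. Group and share therefore cannot be told apart in that fit. With the mitochondrial share as a covariate Aldh1l1, Shmt1 and Mthfd1 were at -1.17 (0.167), -0.50 (0.527) and -0.29 (0.687), and with a term for sex at -2.85, -1.91 and -2.06 (0.445 to 0.535), none passing. As above, the sex term came from the DEN LKO groups alone, whose XX libraries had high mitochondrial shares.

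DEN itself was compared within each genotype. In WT liver, DEN minus untreated gave differences from -0.19 ± 0.67 (SE) for Shmt1 to 0.50 ± 0.65 for Tyms and 0.50 ± 0.33 for Mthfd2. No enzyme passed and 0% of all genes did (95 genes, 0.685%, at an unadjusted p under 0.05, no enzyme among them). The groups overlapped for all 7, while they did not for 0.67% of all genes. In LKO nontumour liver, DEN minus untreated gave -0.67 ± 0.74 for Aldh1l1, 0.26 ± 0.55 for Mthfd1l and 0.78 ± 0.38 for Mthfd2. None of the 7 passed, against 0.0649% of all genes, nor had an unadjusted p under 0.05, against 5.96%. Mthfd2 was the only enzyme whose groups did not overlap, which held for 12.3% of all genes and for 9.86% in the higher direction.

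In a ratio of 2 enzymes within a library, the scaling by the library's total cancels where both levels are well above the pseudocount of 1, as for Shmt1 and Shmt2. The log2 ratio of Shmt1 to Shmt2, both of TPM + 1, was 0.04, 0.06 and -1.37 in untreated WT libraries 1 to 3, and -0.80, -1.60 and -1.06 in untreated LKO. The low value was that of untreated WT library 3, which has low Ftcd and also the highest mitochondrial share of its group (23.2%). In DEN WT it averaged -0.44 ± 0.41 (SD, n = 6), with the lowest value, -1.14, in low-Ftcd library 1, against -1.47 ± 0.33 (n = 3) for nontumour and -1.35 ± 0.33 (n = 3) for tumour libraries of DEN LKO mice. Those ranges overlapped only through DEN WT library 1, whose ratio lay near the highest DEN LKO nontumour value of -1.09 and tumour value of -0.98. That library also has the highest mitochondrial share of all (38.8%). DEN WT library 2, with low Ftcd and a share of 6.47%, held -0.67. Within groups, the slope on a doubling of the share was -0.90 for Shmt1 and -0.57 for Shmt2. The part of Ftcd or of the share in this ratio was not tested.

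The log2 ratio of Mthfd1 to Mthfd1l averaged 5.41 ± 0.80 (SD, n = 3) for untreated WT, 4.21 ± 0.64 (n = 3) for untreated LKO, 5.17 ± 0.79 (n = 6) for DEN WT, 3.70 ± 0.32 (n = 3) for nontumour DEN LKO and 2.55 ± 0.49 (n = 3) for tumour libraries. It did not overlap between tumours (3.11, 2.33 and 2.22) and nontumour DEN LKO liver (3.73, 3.36 and 4.01), between tumours and DEN WT (3.73 or more), or between untreated LKO and untreated WT. In untreated liver, with Mthfd1l under 1 TPM in all 6 libraries, the ratio followed Mthfd1 (-1.19 against -1.17 for Mthfd1 itself), and the scaling did not cancel. Mthfd1l was also at most 1.25 TPM in DEN WT, at most 1.20 TPM in DEN LKO nontumour liver and 0.21 TPM in tumour library 1. The scaling therefore did not fully cancel there either. DEN LKO nontumour minus DEN WT gave -1.47 for the ratio against -1.51 for Mthfd1 itself. Mthfd1 to Mthfd2 averaged 5.18 ± 0.67 (n = 3), 4.03 ± 1.41 (n = 3), 4.76 ± 1.34 (n = 6), 2.99 ± 0.30 (n = 3) and 2.37 ± 1.01 (n = 3) in the same order, with overlap in every comparison. The ratio of Aldh1l1 to Aldh1l2, with Aldh1l2 near 0, followed Aldh1l1 and did not overlap between untreated LKO and untreated WT. Of 24 pairs of ratio and comparison, 4 did not overlap, all lower in the first group, and no test was made. How often ratios of other genes do so was not measured. The 24 pairs share groups and enzymes, so they are not independent. With a pseudocount of 0.1 in place of 1, 2 of 24 did not overlap: Mthfd1 to Mthfd1l in tumour minus DEN WT (-3.34) and Aldh1l1 to Aldh1l2 in untreated liver (-1.27).

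**Figure D3:**
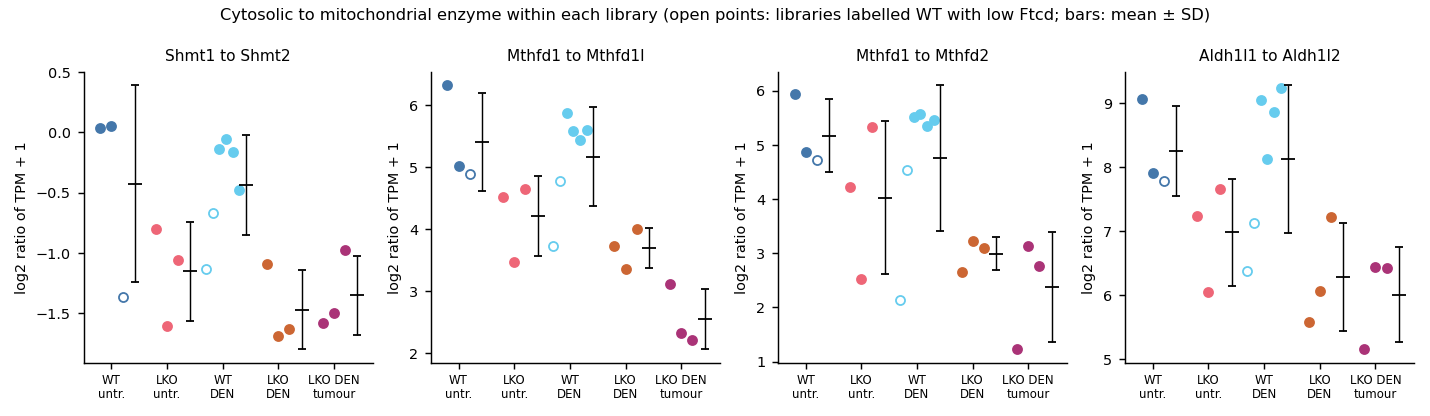
Log2 ratio of a cytosolic to a mitochondrial enzyme (vertical axes, TPM + 1) in each library by group, with the group mean and SD as bars and the 3 libraries labelled WT with low Ftcd as open points. The mean of Mthfd1 to Mthfd1l is 5.17 in DEN WT, 3.70 in DEN LKO nontumour liver and 2.55 in tumours.

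Within groups, the enzymes moved with the share of mitochondrially encoded transcripts. In a limma fit with the 5 group means, a doubling of that share went with a change of -0.91 ± 0.15 (SE) in Mthfd1, -0.90 ± 0.16 in Shmt1, -0.82 ± 0.17 in Aldh1l1, -0.80 ± 0.19 in Tyms, -0.57 ± 0.14 in Shmt2 and -0.44 ± 0.17 in Mthfd1l (limma adjusted p from 0.00062 to 0.0354). Mthfd2 did not follow (0.04 ± 0.13, adjusted p = 0.799; 95% interval -0.24 to 0.32). So 6 of 7 fell with the share, as 47.1% of all genes did, and the median over all genes was -0.31. Mitochondrially encoded transcripts count in the same fixed TPM total as the enzymes, so a negative slope is in part built into the scale. With median-ratio scaling 3 of 7 (Mthfd1, Shmt1 and Aldh1l1) still fell, against 12.1% of all genes, and with the mitochondrial genes taken out of TPM 4 of 7 did, against 24.9%. Without DEN WT library 1, which has the highest share, 4 of 7 fell, against 24.7% of all genes, and Shmt2 (-0.57, adjusted p = 0.0519) and Mthfd1l (-0.64, 0.0519) missed the threshold. Mthfd1l also missed it without tumour library 1 (0.0663), tumour library 3 (0.0678), DEN LKO nontumour library 1 (0.0564) or DEN WT library 5 (0.0523). What the share reflects was not tested.

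**Figure D4:**
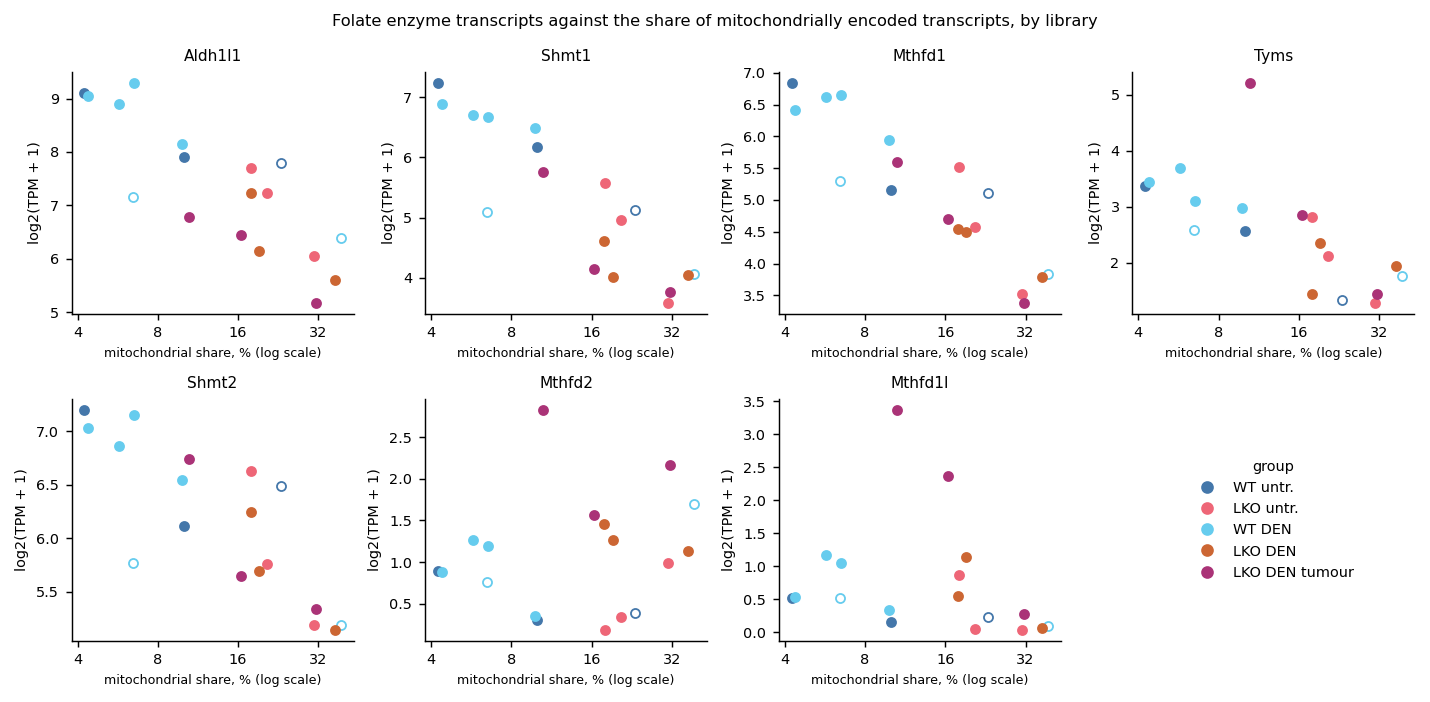
Level of the 7 tested enzymes as log2(TPM + 1) (vertical axes) against the percent of TPM from mitochondrially encoded genes (horizontal axes, log scale), 1 point per library, coloured by group, open for the 3 libraries labelled WT with low Ftcd. Mthfd1, Shmt1, Aldh1l1 and Shmt2 descend from left to right, from shares of 4.24% to 38.8%, and Mthfd2 shows no such slope.

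Of the 25 other folate pathway genes listed, 24 passed the filter (the receptor Folr1 did not) and none passed the test in any of the 6 comparisons. In untreated liver 23 of the 24 were below 0 in LKO minus WT, with a median of -0.69, against 76.1% of all genes and a median of -0.33. In DEN nontumour liver 20 of 24 were, with a median of -0.71, against 62% of all genes and a median of -0.19. The 24 include the deleted Ftcd. Within groups, 17 of the 24 fell with the mitochondrial share and 1 rose (limma adjusted p under 0.05), while 47.1% of all genes fell. Their median slope was -0.49 against -0.31 over all genes. Mean shares were higher in the LKO groups than in WT liver. The part of the share in these counts was not tested. In tumour minus DEN WT 19 of 24 were below 0, with a median of -0.42, against 47.1% and 0.04, and in tumour minus nontumour DEN LKO liver 10 of 24 were, with a median of 0.11, against 30.7% and 0.23. Next to the deleted Ftcd, the largest difference of both genotype comparisons was that of Gnmt, the glycine methyltransferase that binds folate: 981 TPM ± 1128 (SD, n = 3) for untreated WT against 229 ± 102 (n = 3) for untreated LKO, and 1084 ± 927 (n = 6) for DEN WT against 124 ± 105 (n = 3) for nontumour DEN LKO and 86.5 ± 45.7 (n = 3) for tumours. Its differences were -1.54 ± 1.00 (SE) in untreated liver (limma adjusted p = 0.831) and -2.76 ± 0.87 in DEN nontumour liver (0.291). Without the 3 low-Ftcd WT libraries the latter was -3.74 (adjusted p = 0.0185) and passed, in a fit where genotype and mitochondrial share cannot be told apart. In tumour minus nontumour liver the largest were the folate transporter Slc46a1 (0.81 ± 0.70, adjusted p = 0.943) and the receptor Folr2 (-0.71 ± 0.62, 0.943).

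**Figure D5:**
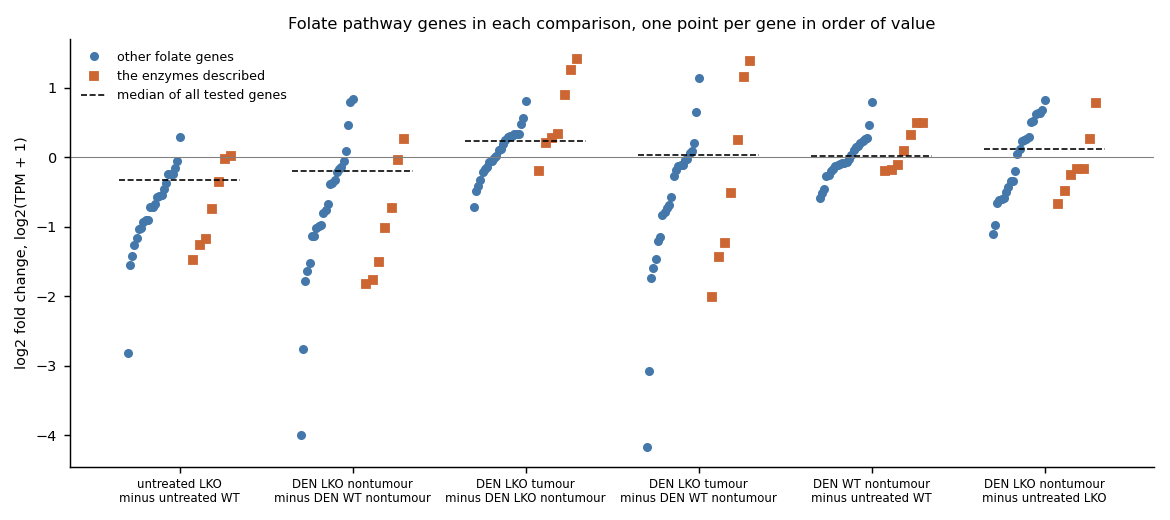
Difference in log2(TPM + 1) (vertical axis) of the 24 other folate pathway genes (blue circles) and the 7 tested enzymes (orange squares) in the 6 comparisons, 1 point per gene sorted by value, with a dashed line at the median of all tested genes. In both genotype comparisons most points of both sets lie below 0, and the lowest circles are Ftcd and Gnmt.

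Gene lists of neighbouring pathways were read beside the enzymes. In tumour minus DEN WT, where the calls below were made, 0.497% of all genes were called, 47.1% were below 0 and their median was 0.04. Of 6 genes of serine synthesis and breakdown, 1 passed, the serine dehydratase Sds, which breaks serine down: it fell in tumours against DEN WT, from 371 TPM ± 151 (SD, n = 6) to 55.3 ± 36.1 (n = 3), a difference of -2.81 ± 0.48 (SE; limma adjusted p = 0.014). Of 17 tested ATF4 targets, 1 rose there, the stress-induced Nupr1, from 2.83 TPM ± 0.94 to 47.4 ± 60.0 (2.91 ± 0.57, adjusted p = 0.0261), with 12 of 17 above 0 and 5 below. Of 16 tested cell division genes, 1 rose, the survivin gene Birc5, from 1.12 TPM ± 0.79 to 6.44 ± 4.63 (1.71 ± 0.37, 0.0463), with 15 of 16 above 0 and 1 below. In tumour minus nontumour DEN LKO liver 16 of 16 cell division genes were above 0 (median 1.03, against 0.23 over all genes) and none passed. No gene of the 3 lists passed in the other 5 comparisons. The 3 calls rested on few libraries. Sds missed the threshold without tumour library 3 (-2.74, limma adjusted p = 0.0523) and with a term for sex (-3.26, 0.0504). Nupr1 missed it without tumour library 3 (1.88, 0.0954), DEN WT library 3 (0.0552) or 6 (0.0639), and with the sex term (2.32, 0.535). Birc5 missed it without tumour library 2 (0.101) or 3 (1.24, 0.211), without DEN WT library 2 (0.0787), 3 (0.109), 4 (0.0959) or 6 (0.0712), and with the sex term (1.07, 0.535). None of the 3 passed in a fit of the compared groups alone, where the adjusted p ranged from 0.137 to 0.261.

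Across the 18 libraries, the levels of Aldh1l1, Shmt1, Shmt2 and Mthfd1 as log2(TPM + 1) had Pearson correlations of 0.90 to 0.95 with one another, and Mthfd2 -0.42 to -0.16 with those 4. Mthfd1l had 0.61 with Mthfd2 and 0.73 with Tyms. These are descriptions over 18 libraries that share group, library total and mitochondrial share. The 3 genes most like each enzyme were Rabggta, Slc27a5 and Ahcy for Aldh1l1 (0.96 to 0.97), Qdpr, Cisd1 and Tcn2 for Shmt1 (0.97), Idh3b, Cisd1 and Clybl for Mthfd1 (0.98) and Ciao3, Prmt7 and Dnajb12 for Shmt2 (0.96 to 0.97). They were Upf3a, Rita1 and C230062I16Rik for Tyms (0.95 to 0.96), Arhgef2, Lockd and Coro2a for Mthfd2 (0.87 to 0.89), and Col4a2, Jpt1 and Entpd2 for Mthfd1l (0.96). Cisd1 appears for both Shmt1 and Mthfd1, and no gene is shared by the lists of Mthfd2 and the cytosolic enzymes.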

How the data were processed

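RNA was sequenced from 18 liver libraries in 5 groups, assigned from the titles in the labels, which also number the replicates. The authors deposited TPM for 58126 genes. Per the submitters' processing notes, mm10 was the genome build and the tools were fastp, HISAT and RSEM; no role, version or setting is stated in the sources used here. Per the labels, RNA was extracted with TRIzol and libraries followed a TruSeq protocol. Library totals were 1000000 TPM within rounding. Depth and counting error are unknown, because counts were not used here. The deposited group means matched the means of their libraries and were not used.

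Tests used limma 3.58.1 (R 4.3.3, 2-sided) on log2(TPM + 1) for the 13872 genes that reached 1 TPM in 3 or more libraries. All 5 groups shared 1 model, which left 13 residual degrees of freedom. Benjamini-Hochberg adjustment covered every tested gene of a comparison, and "passed" means an adjusted p below 0.05. A further model added the log2 percent of TPM from mitochondrially encoded genes. The scripts were tested on simulated data. Python 3.11.15, numpy 2.4.6, pandas 2.3.3 and matplotlib 3.10.9 made tables and figures. Promoters came from RefSeq (GRCm38.p6) and positions from GENCODE.

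All 8 enzymes and Ftcd were named. From the other lists, each gene that passed was named (the 6 largest changes where more did), or else the 2 with the largest change, and for each enzyme the 3 genes with the highest correlation. The members and lists were chosen with earlier results of these data known. Whether replicate numbers pair samples was checked by correlating deviations from group means: in no comparison were all 3 pairs over 0.1. Tumour and nontumour DEN LKO libraries with the same number had the same sex and gave 0.35, 0.30 and -0.03. Tumour and DEN WT libraries, which carry different genotype labels, gave 0.61, 0.005 and 0.43. The check therefore cannot decide whether tumour and nontumour libraries are pairs. Alternatives were other scalings, a pseudocount of 0.1, no filter on low values, compared groups only, a replicate block, a term for sex, the mitochondrial share as a covariate, each library left out, and the 3 low-Ftcd WT libraries left out.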

Additional observations from a re-analysis of the deposited data

Results flagged for a closer look

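The log2 ratio of Mthfd1 to Mthfd2 in DEN WT liver had 1 library far from the others. DEN WT library 1 held 2.14, while the other 5 libraries lay between 4.54 and 5.58. That library has low Ftcd despite its WT label, the highest mitochondrial share of the 18 (38.8%), the lowest Mthfd1 of its group (13.2 TPM) and the highest Mthfd2 (2.23 TPM). The groups of 4 to 10 samples gave 12 sets of values to look at, and chance alone marks about 1 set in 20.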

How the results depend on the processing

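No direct count of reads was used, so what depth limits could not be measured. Levels under about 1 TPM are the least certain. Mthfd1l and Aldh1l2 had such levels in most libraries, and Mthfd2 in all untreated and some DEN WT libraries. With 3 libraries in most groups, single libraries moved several values. Of the single-enzyme values under settings that kept all libraries or left out the 3 low-Ftcd WT libraries, 336 kept direction and side of the threshold, 25 turned direction, 7 passed only there and 6 no longer passed. With 1 library left out these numbers were 380, 23, 2 and 6. The cause of these shifts was not tested.

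The number of enzymes that passed changed as follows. Without the 3 low-Ftcd WT libraries it was 3 for DEN LKO nontumour minus DEN WT and 2 for tumour minus DEN WT, in place of 0. For tumour minus DEN WT it was 1 with median-ratio scaling and 1 with quantile normalization. Leaving out single libraries gave 0 to 1 for tumour minus nontumour and 0 to 1 for tumour minus DEN WT, the 1 being Mthfd1l without tumour library 1 in both. For the slope on the mitochondrial share it was 3 with median-ratio scaling in place of 6. Ratios whose groups did not overlap numbered 2 with a pseudocount of 0.1 in place of 4, and 4 to 10 with single libraries left out, with 10 without DEN WT library 1, 8 without untreated LKO library 2 and 7 without DEN LKO nontumour library 1.

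For untreated LKO minus WT, Mthfd2 turned to 0.22 with median-ratio scaling, 0.16 with quantile normalization and 0.061 without mitochondrially encoded genes. Mthfd1l turned to -0.28 with a pseudocount of 0.1, -1.66 with the sex term and -0.0096 without the low-Ftcd libraries. Tyms turned to 0.048 with median-ratio scaling and 0.60 with the mitochondrial share. For DEN LKO nontumour minus DEN WT, the mitochondrial share turned Shmt2 to 0.086, Tyms to 0.14 and Mthfd1l to 0.60, and Mthfd1l was 0.057 with median-ratio scaling and 0.029 without mitochondrially encoded genes. For tumour minus nontumour, Shmt1 turned to -0.022 with quantile normalization and -0.035 with the mitochondrial share. Shmt2 turned to -0.075 with median-ratio scaling, -0.074 with quantile normalization and -0.019 with the mitochondrial share, and Mthfd1 to -0.014, -0.070 and -0.098 under the same settings. For tumour minus DEN WT, Shmt2 turned to 0.067 with the mitochondrial share, and Tyms to -0.60 with the sex term and -0.13 without the low-Ftcd libraries.

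With single libraries left out, untreated LKO minus WT ranged from -0.26 to 0.16 for Mthfd2, -0.25 to 0.17 for Mthfd1l and -0.89 to 0.13 for Tyms. DEN LKO nontumour minus DEN WT ranged from -0.31 to 0.22 for Mthfd1l. Tumour minus nontumour ranged from -0.55 to 0.29 for Aldh1l1, -0.27 to 0.73 for Shmt1, -0.21 to 0.50 for Shmt2 and -0.24 to 0.86 for Mthfd1. Tumour minus DEN WT ranged from -0.77 to 1.11 for Tyms. DEN WT minus untreated WT ranged from -0.72 to 0.34 for Shmt1 and -0.045 to 0.97 for Tyms, and DEN LKO nontumour minus untreated LKO from -0.016 to 0.54 for Mthfd1l. The slope of Mthfd2 ranged from -0.21 to 0.12.

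Genes called over the whole table also moved. Untreated LKO minus WT had 60, and 96 with median-ratio scaling (56 higher and 40 lower, against 24 and 36). DEN LKO nontumour minus DEN WT had 8, and 1159 without the low-Ftcd libraries, 202 without DEN WT library 1 and 0 with the mitochondrial share. Tumour minus DEN WT had 69, and 313 with median-ratio scaling (143 higher and 170 lower, against 36 and 33), 420 without the low-Ftcd libraries and 9 with the sex term. Median-ratio scaling moved the median difference of all genes from -0.33 to 0.00 in untreated LKO minus WT.

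The replicate block, in a fit of the compared groups that drops DEN WT libraries 4 to 6, left no enzyme passing: Aldh1l1 was -1.21 (limma adjusted p = 0.925) for DEN LKO nontumour minus DEN WT, and Mthfd1l turned to 0.20. In untreated liver 53 genes were called in a fit of the compared groups alone and 10 with the block added to it. The replicate numbers share no stated animal or batch. Quantile normalization was not run for the slope, nor the block for the interaction.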
